A study of Mus musculus with 8 samples.

Results

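The 5S rRNA genes and their relatives were followed in CDPs, the DC-restricted progenitors of bone marrow (BM), of mice fed a high fat diet (HFD) or a control diet (CF). A gene was taken as a short rRNA gene when GENCODE vM21 (mouse genome GRCm38) gives it the biotype rRNA and its exons cover at most 200 nt. Of the 16119 genes in the authors' count table, 57 met this rule. They were 92 to 125 nt long and 35 of them measured 119 nt. All 57 passed edgeR's filter on low counts. The annotation holds 353 such genes on the genome, of which 296 were not listed in the table. The only other rRNA gene of that biotype in the table was CT010467.1, with 2466 nt.

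Both diets were given to male mice of the C57BL/6J background. HFD held 60 kcal% fat and CF 10 kcal% fat. The labels give 16 weeks of feeding for HFD mice and call CF mice their matched controls, and the methods call the purchased males 16 weeks old. About 50000 cells (Lin-, c-kit intermediate, Sca1 low, CD115+, Flt3+) were sorted per replicate, with 4 replicates per diet that the methods call independent, and how many mice each held is not given in the sources used here. RNA was amplified with a kit (NuGEN Ovation Solo) that cuts rRNA inserts out of the library, so levels of rRNA describe what was left after this depletion. Total counts were 28203651 to 38969160 per library under HFD and 32575696 to 48409689 under CF.

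5S rRNA is the smallest RNA of the large ribosomal subunit. Unlike the other cytosolic rRNAs it is made by RNA polymerase III, outside the nucleolus, from genes that stand in tandem copies. Its promoter lies inside the transcribed sequence, in a box A, an intermediate element and a box C, which TFIIIA (Gtf3a) binds before TFIIIC and TFIIIB join. The finished RNA binds the ribosomal proteins Rpl5 and Rpl11, and this particle either enters the ribosome or, when free, binds Mdm2. Mammalian genomes also carry many scattered copies of 5S that have drifted in sequence, most of which are regarded as pseudogenes.

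The members were compared first by sequence, since many copies differ by a single base. Sequences of all 57 were taken from the GENCODE vM21 transcripts. The most frequent sequence among the 353 annotated genes, of 119 nt, had 32 copies and is used here as the 5S consensus. All 32 lie in a tandem array of 51 annotated genes on chromosome 8 (minus strand, median spacing 1697 nt), inside an intron of Gm20388 on the other strand. The table listed 20 genes of the array, and only 2 of them (n-R5s124 and Gm25018) had the consensus sequence. The other 37 members were spread over 18 chromosomes.

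The most frequent sequence among the 57 differs from the consensus at a single base and is shared by 4 members of the array (n-R5s106, n-R5s118, n-R5s130 and Gm24312). Another single-base variant is shared by n-R5s112, n-R5s120 and n-R5s125, and n-R5s136 carries one of its own. In 7 array members the same 3 substitutions occur together. n-R5s193, on the plus strand of chromosome 4, was 82.4% identical to the consensus over its whole length and identical to it over the first 90 bases. In all, the 57 members had 48 different sequences, and 14 members shared 5 of them.

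Likeness to the consensus began at 63.0% and had a median of 93.3%. It was at least 90% in 34 members.

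Most of the short rRNA counts were given to a single member, n-R5s193. Its first 90 bases equal the consensus, of which 30 annotated copies were not listed. By sequence, reads inside that stretch cannot be told from those of consensus copies. n-R5s193 received 721472, 833449, 1079686 and 1423765 counts in HFD replicates 1 to 4 and 4485606, 2318054, 2551461 and 1947018 in CF replicates 1 to 4. Every HFD library was below every CF library. These were 82.6% to 84.4% of all counts of the 57 members under HFD and 82.6% to 83.3% under CF. Normalised by TMM and per kb of exon, its level was 257461 CPM per kb under HFD and 735295 under CF, against 7775 and 25414 for n-R5s194, the next member. The order that followed was n-R5s185, n-R5s2, n-R5s33 and n-R5s136.

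As a share of all counts of the library, n-R5s193 took 2.33%, 2.96%, 3.15% and 3.65% under HFD and 9.27%, 6.49%, 7.25% and 5.98% under CF. The other 56 members together took 0.490% to 0.678% in HFD, with a mean of 0.583% ± 0.080 (SD, n = 4), and 1.25% to 1.96% under CF, with a mean of 1.5% ± 0.32 (SD, n = 4). Neither share overlapped between the diets. The means under CF were 2.40 times those in HFD for n-R5s193 and 2.57 times for the others. In these bulk samples fewer cells of a type and less RNA per cell cannot be told apart.

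**Figure D1:**
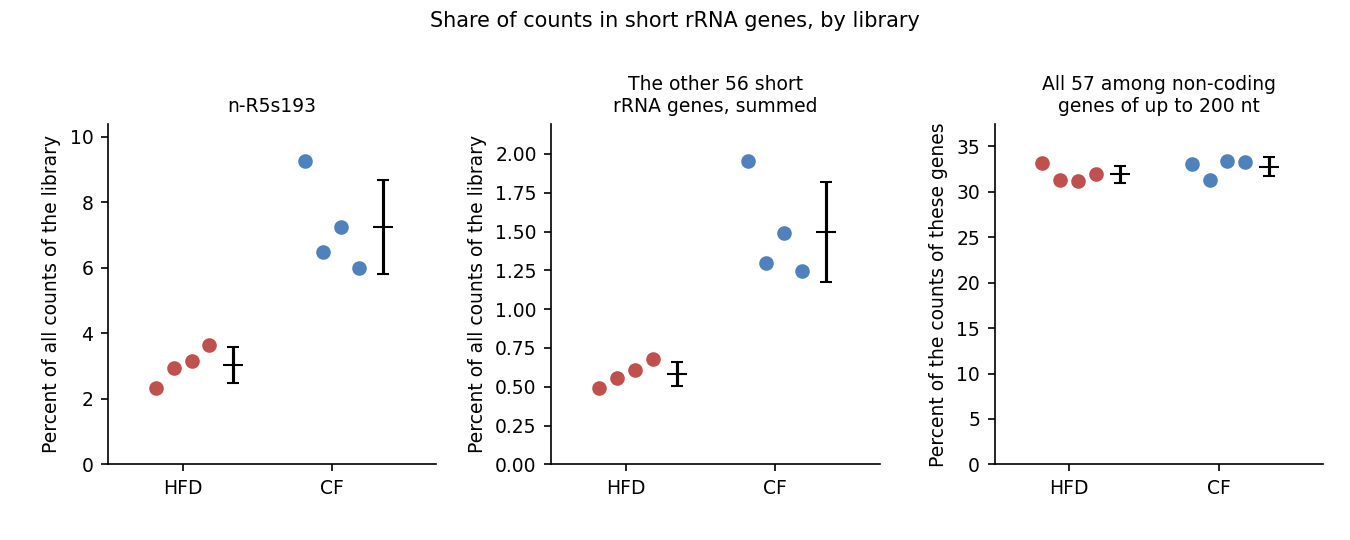
Percent of counts per library (points, in the order of replicates 1 to 4) with mean and SD (black) for n-R5s193, for the other 56 short rRNA genes, and for all 57 among the counts of non-coding genes of up to 200 nt. The first 2 panels separate HFD from CF, and in the third the ranges overlap, with 31.2% to 33.2% under HFD and 31.3% to 33.4% under CF. The genes of the third panel include Gm47301, which lies inside n-R5s193.

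HFD replicate 1 stood apart in markers of other cells. Its summed CPM was 18771 for 8 neutrophil genes (884 to 3342 in the other HFD libraries, 1800 to 6119 in CF), 439 for 7 erythroid genes (84.0 to 125, 78.0 to 122 in CF) and 1244 for 6 B cell genes (444 to 581, 278 to 499 in CF). Flt3, a receptor of the sort gate, had 88.8 CPM there and 228 to 378 in the other 7 libraries, and Kit, Ly6a and Csf1r overlapped between the diets. The summed CPM of 5 T and NK cell genes (11.0 to 30.0 in HFD, 13.4 to 22.3 in CF), 5 monocyte and macrophage genes (133 to 509, 248 to 485), 4 plasmacytoid DC genes (164 to 375, 171 to 217) and 5 conventional DC genes (59.0 to 158, with CF inside that range) overlapped too. In these 4 lists HFD replicate 1 was again at the edge of all 8 libraries, with the highest sums for T and NK cells and for monocytes and macrophages and the lowest for both DC types. Of the genes tested on these lists, edgeR called 0, and at an unadjusted p under 0.05 were 5 of 6 B cell and 3 of 4 plasmacytoid DC genes, all higher under HFD. The part of such cells in the rRNA values was not tested, and the short rRNA counts without this library are given with the calls.

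With TMM scaling, short rRNA genes were lower under HFD wherever they passed the test. By edgeR's quasi-likelihood test, with Benjamini-Hochberg adjustment over all 15837 genes tested and a threshold of 0.05, 27 of 57 members were called lower and 0 higher. Over all genes 0.423% were called lower and 0% higher. With an unadjusted p under 0.05, 54 members were lower and 0 higher, where all genes gave 5.34% lower and 3.22% higher. In 49 members every HFD library lay below every CF library, a pattern found in 3.58% of all genes, and in 0 did every HFD library lie above, against 2.58% of all genes. The fitted log2 fold change (HFD against CF, here log2 change) was negative in 56 members, with a median of -1.65, against 0.05 over all genes. It was below -1 in 49 members.

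The calls stood close to the threshold. The adjusted p of called members ran from 0.035 to 0.045 (edgeR), and the next member was at 0.052. They were 24 different sequences, and members made up 40.3% of the 67 genes called in all. Without HFD replicate 1, 29 members were called lower and 0 higher, while the calls over all genes rose to 1.05% lower and 0.214% higher. Without CF replicate 4, 39 members were called lower, and 0.968% of all genes. Without any single one of the other 6 libraries (HFD 2, 3 or 4, CF 1, 2 or 3), edgeR called 0 members and at most 2 genes in the whole table, while 53 or 54 members and 4.596% to 5.47% of all genes were lower at an unadjusted p below 0.05. With each library left out in turn, the median log2 change of the members lay between -1.83 (without CF replicate 4) and -1.36 (without CF replicate 1). DESeq2 called 52 members lower, limma voom 24 and a linear model on log2(CPM + 1) for each gene 0, where 3.18%, 0.442% and 0% of all genes were called lower. DESeq2 called 0.404% of all genes higher and 0 members. With library size alone edgeR called 33 members lower and 0 higher, against 0.619% and 0.0631% of all genes.

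**Figure D2:**
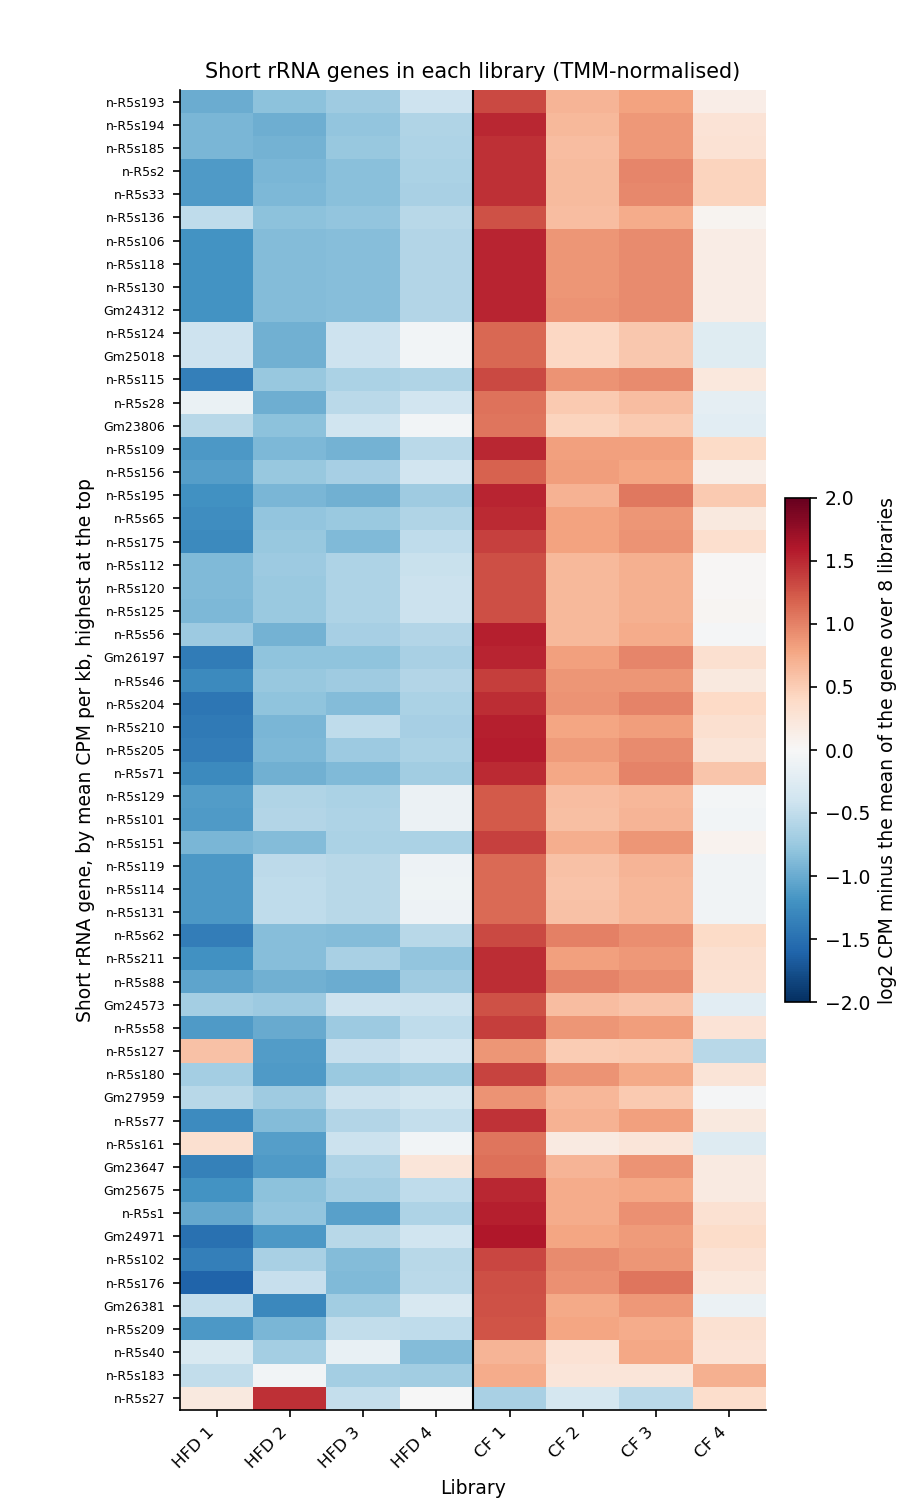
Log2 CPM of each of the 57 short rRNA genes (rows, by mean CPM per kb) in each library (columns) minus the mean of the gene over the 8 libraries. Most HFD cells are below the mean (blue) and most CF cells above it (red), CF replicate 1 is the highest library in 55 rows, CF replicate 4 is the palest CF column, and n-R5s27 in the last row is highest in HFD replicate 2.

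The libraries kept much the same order from member to member. CF replicate 1 was the highest of all 8 in 55 members, and CF replicate 4 was the lowest CF library in 55. HFD replicate 1 was the lowest of all 8 in 39 members, and HFD replicate 4 the highest HFD library in 43. The TMM factors of these libraries were 0.80 in CF replicate 1 and 1.18 in CF replicate 4, and 1.01 to 1.13 in HFD. Members thus share their library-to-library spread and are not independent of each other.

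n-R5s193 itself was not called. Its CPM was 23154, 26222, 28326 and 34551 under HFD and 115906, 73731, 80347 and 50604 under CF. The diets did not overlap. The log2 change was -1.51 with a standard error of 0.29 (edgeR, adjusted p = 0.075). It lay between -1.68 and -1.26 in 17 alternatives, scaling to short genes aside, and was called in 3 of them.

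The place of n-R5s193 is also annotated as a miRNA gene. Gm47301, of 60 nt, lies inside it on the same strand and received 654228 to 1427346 counts under HFD and 2172686 to 5291727 under CF. The 2 genes together held 4.44% to 7.32% of all counts under HFD and 12.7% to 20.2% under CF. Gm47301 had a log2 change of -1.70 (standard error 0.31, edgeR, adjusted p = 0.071). How reads of the locus were divided between both genes is not given in the sources used here, so the counts of each are uncertain. The same layout occurred at Gm26381, the shortest member with 92 nt (chr16:41217745-41217836, plus strand), which had 11 to 28 counts under HFD and 30 to 79 under CF, while Gm47276 inside it had 15198 to 28181 and 38683 to 110224. At n-R5s1 (chrY:991630-991748, minus strand) the inner gene is Gm47281, with 502 to 1051 counts under HFD and 1775 to 4147 under CF. All 3 inner genes were below CF in every HFD library, and Gm47281 was called (log2 change -1.81, edgeR, adjusted p = 0.037).

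The most abundant members after n-R5s193 were scattered copies. n-R5s194 (chr3:4338998-4339116, plus strand), which overlaps no annotated gene, had 862, 824, 938 and 1077 CPM under HFD and 4613, 2551, 2956 and 1976 under CF. No HFD value reached the lowest CF value. Its log2 change was -1.71 (standard error 0.26, edgeR, adjusted p = 0.043). n-R5s185 (chr4:53860652-53860770, plus strand) had 648 to 819 CPM under HFD and 1534 to 3457 under CF, with a log2 change of -1.68 (standard error 0.25, edgeR, adjusted p = 0.040). It lies in an exon of Tmem38b on the same strand, which had 18.5, 4.85, 3.23 and 3.08 CPM under HFD and 8.53 to 11.2 under CF and was not called (log2 change -0.41, edgeR, adjusted p = 0.92). Only HFD replicate 1 lay above the CF values of Tmem38b, and without that library Tmem38b was called lower (log2 change -1.41, edgeR, adjusted p = 0.022). How reads were divided between n-R5s185 and this exon is not given in the sources used here.

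n-R5s2 and n-R5s33 had nearly the same counts. n-R5s2 (chromosome X, no overlapping gene) had 333, 388, 408 and 468 CPM under HFD and 2009, 1132, 1428 and 991 under CF. n-R5s33 (chromosome 16, in an intron of Lrch3) had 331, 387, 406 and 460 CPM under HFD and 1999, 1119, 1415 and 984 under CF. Neither gene overlapped between the diets. Both had a log2 change of -1.80 (standard error 0.24, edgeR, adjusted p = 0.035). Their sequences differ from each other at 7 positions, yet their counts differed by at most 1.60% in any library.

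Counts of identical copies were nearly equal throughout. The 4 identical copies of n-R5s106 differed by at most 1.17% in any library, and the other 4 shared sequences by 1.34% (n-R5s124 and Gm25018) to 2.61% (n-R5s114, n-R5s119 and n-R5s131). The methods state that only uniquely mapped pairs were kept, and how identical copies then came to near-equal counts is not given in the sources used here. The counts of such copies cannot be given to a single place on the genome, and each shared sequence is better read as 1 measurement. Of the 1596 pairs of members, 12 differed by under 2% in every library, and 11 of these had identical sequences. The other pair was n-R5s2 and n-R5s33. When identical copies were summed before the fit, 24 of 48 sequences were called lower by edgeR and 0 higher, with 0.398% of all genes lower and 0% higher in that fit.

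**Figure D3:**
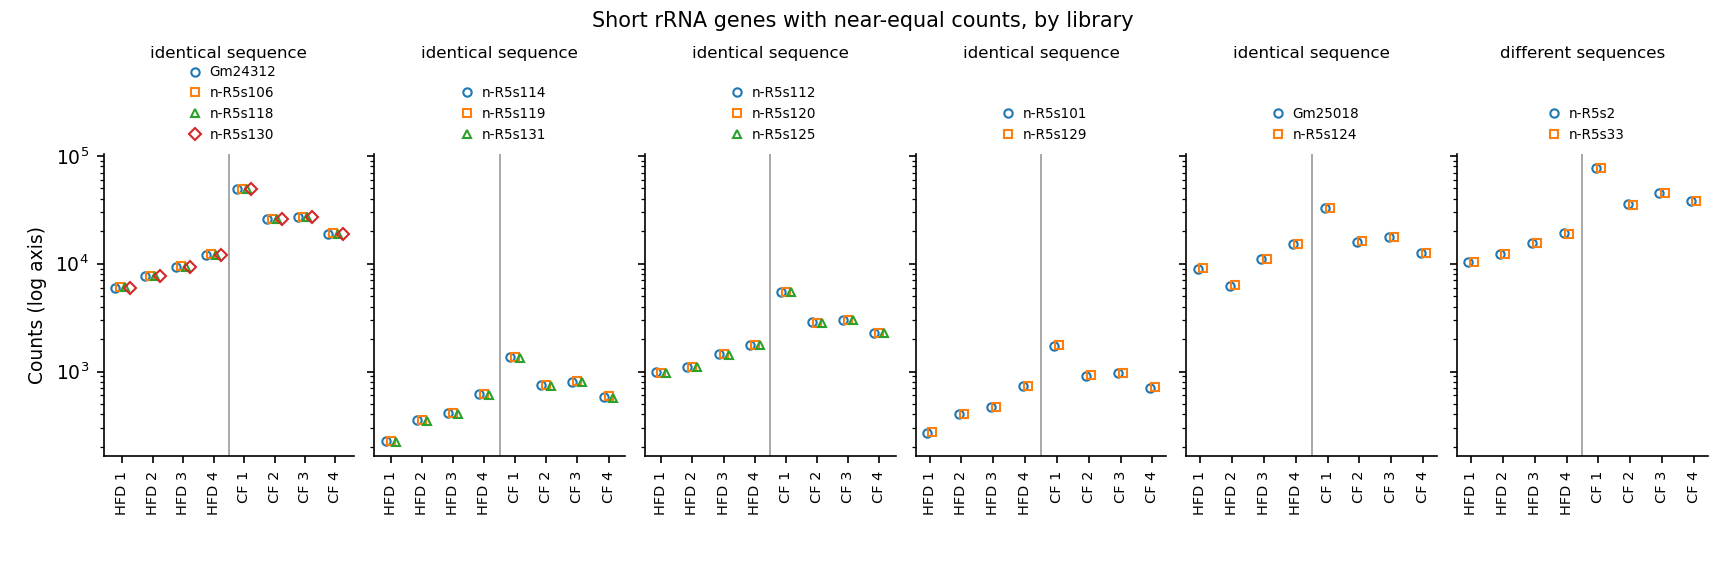
Counts (log axis) in the 8 libraries for the 5 sets of short rRNA genes with identical sequences and for n-R5s2 and n-R5s33, whose sequences differ. Within each panel the symbols of a library fall on the same level, with differences of at most 2.61%.

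In the array, the size of the fitted change varied from copy to copy. n-R5s106 and its 3 identical copies had the most negative values. n-R5s106 had 195, 244, 247 and 297 CPM under HFD and 1280, 827, 859 and 498 under CF. Its log2 change was -1.82 (standard error 0.28, edgeR, adjusted p = 0.040), as it was for n-R5s118. The consensus pair had values nearer to 0, and its difference from the n-R5s106 copies was not tested. n-R5s124 had 291, 199, 291 and 372 CPM under HFD and 856, 514, 559 and 326 under CF, so HFD replicate 4 lay above CF replicate 4. Its log2 change was -0.97 (standard error 0.30, edgeR, adjusted p = 0.27), and Gm25018 gave the same value.

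Other array copies fell between these. n-R5s112, n-R5s120 and n-R5s125 had log2 changes of -1.40 to -1.39 (edgeR, adjusted p = 0.057), and their diets did not overlap. n-R5s136 had 290 to 360 CPM under HFD and 530 to 1234 under CF, with a log2 change of -1.39 (edgeR, adjusted p = 0.057). n-R5s109 (chr8:123554060-123554178, minus strand) had 53.6 to 82.0 CPM under HFD and 155 to 340 under CF, with a log2 change of -1.81 (standard error 0.25, edgeR, adjusted p = 0.035). Of the 7 array members with the 3 shared substitutions, 0 were called by edgeR, 6 had an unadjusted p below 0.05 and the median log2 change was -1.17. Identical copies among the 7 are n-R5s114, n-R5s119 and n-R5s131, and n-R5s101 and n-R5s129, so they are fewer than 7 measurements. n-R5s102, also of the 7, had a log2 change of -1.73 (edgeR, adjusted p = 0.052). Of the 13 others, 6 were called lower and the median was -1.40. These 6 were 3 sequences, those of n-R5s109, n-R5s115 and the 4 identical copies of n-R5s106. The median CPM was 17.95 in the 7 and 422 in the 13, and both sets hold identical copies. The difference between these sets was not tested.

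n-R5s127 had the value nearest to 0 in the array. It differs from the consensus at 8 positions and had 5.42, 1.67, 2.62 and 2.77 CPM under HFD and 6.67, 5.15, 5.20 and 2.44 under CF. HFD replicate 1 lay above 3 of the 4 CF libraries. The log2 change was -0.64 (standard error 0.40, edgeR, adjusted p = 0.78), and -1.04 without HFD replicate 1.

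Medians by likeness to 5S lay close together. With at least 90% identity, 18 of 34 members were called lower and the median log2 change was -1.69. Under 90%, 9 of 23 were called and the median was -1.62. The members nearest to that limit were at 90.8% and 89.9%. Median CPM was 66.4 at or above the limit and 5.18 below it. At a limit of 80% the median log2 changes were -1.67 and -1.57, with 23 of 44 and 4 of 13 called. At 95% they were -1.60 and -1.66, with 11 of 23 and 16 of 34 called, so the order depends on the limit. Against the most frequent listed sequence, at 90%, they were -1.68 and -1.64. Outside the array 21 of 37 members were called, with a median of -1.70, and in the array 6 of 20, with a median of -1.39. All 14 members that share 5 sequences lie in the array, so its 20 members are fewer measurements. These differences were not tested.

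**Figure D4:**
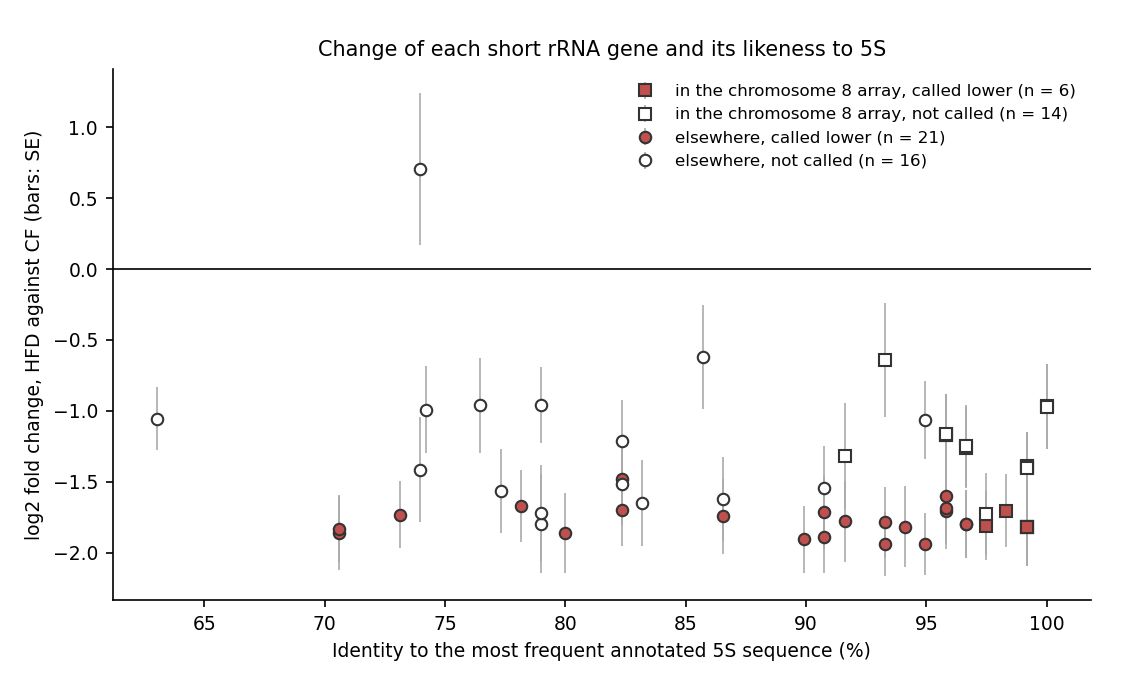
Fitted log2 change with its standard error (y axis) against identity to the 5S consensus in percent (x axis) for the 57 short rRNA genes, filled where called lower by edgeR, with squares for the array on chromosome 8. Values near -1.8 occur from 70.6% to 99.2% identity, and the pair identical to the consensus stands at -0.97.

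Several scattered copies of lower abundance were among the members with the lowest p. n-R5s71 (chr11:74319792-74319910, plus strand, no overlapping gene) had 7.93, 9.91, 10.4 and 11.9 CPM under HFD and 54.3, 33.1, 38.1 and 28.4 under CF. This was the smallest p of the 57, with a log2 change of -1.94 (standard error 0.22, edgeR, adjusted p = 0.035). n-R5s195 (chr3:39635964-39636082, minus strand), opposite an exon of Gm42781, had 31.3 to 44.4 CPM under HFD and 104 to 208 under CF, and its log2 change was also -1.94 (standard error 0.22, edgeR, adjusted p = 0.035). In both, the highest HFD library was under 0.5 times the lowest CF library.

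n-R5s88, n-R5s204 and n-R5s62 were also scattered copies. n-R5s88 (chr9:102127888-102128005, plus strand, opposite an intron of Ephb1) had 2.95 to 3.71 CPM under HFD and 7.56 to 17.0 under CF, a log2 change of -1.91. n-R5s204 (chr2:119631118-119631236, plus strand), in an intron of Nusap1 on the same strand, had 8.92 to 15.7 CPM under HFD and 32.0 to 67.5 under CF, a log2 change of -1.89. Nusap1 itself had a log2 change of 0.03. n-R5s62 (chr12:82150468-82150563, plus strand), with no gene over it, had 3.59 to 6.38 CPM under HFD and 12.2 to 23.3 under CF, a log2 change of -1.83. All 3 were called (edgeR, adjusted p = 0.035 for each), and none overlapped between the diets. n-R5s205, the longest member with 125 nt (chr2:120640711-120640835, minus strand), had 7.93 to 13.4 CPM under HFD and 24.8 to 61.5 under CF, with a log2 change of -1.86 (edgeR, adjusted p = 0.040).

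Overlap with another gene bears on these counts, since the strand used in counting is not given in the sources used here. Of the 57 members, 17 overlapped no annotated gene, 10 overlapped one on the same strand and 30 only on the other strand, of which 20 are the array. Among the 17, 10 were called lower by edgeR, 17 had an unadjusted p below 0.05, and the median log2 change was -1.72. Their summed share of all counts was 0.160% to 0.210% under HFD and 0.411% to 0.647% under CF. The 11 host genes in the table that are not miRNA genes had log2 changes between -0.46 and 0.26, with 0 called by edgeR and 0 at an unadjusted p under 0.05. With single libraries left out, Tmem38b was the only one of them to be called, as given with n-R5s185.

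A few members had values closer to 0 or above it. n-R5s27 (chr17:44641025-44641143, minus strand) lies in an intron of Runx2 on the same strand and had 13, 32, 10 and 15 counts under HFD and 9, 9, 8 and 18 under CF. It was the only member with a positive log2 change, 0.71 (standard error 0.53, edgeR, adjusted p = 0.82), and the diets overlapped. This change lay between 0.16 and 0.98 with each library left out in turn. Runx2 had 151 to 430 CPM under HFD and 218 to 263 under CF. n-R5s161 (chr6:30379101-30379214, plus strand), opposite an intron of Zc3hc1, had 1.42 to 3.79 CPM under HFD and 2.52 to 6.38 under CF, with -0.62 (edgeR, adjusted p = 0.76). Its log2 change was -0.85 to -0.29 with each library left out in turn. Gm23806 (chrX:159449277-159449385, plus strand), in an intron of Map7d2, had 152, 127, 169 and 215 CPM under HFD and 467, 303 and 323 in CF replicates 1 to 3, while CF replicate 4 lay below HFD replicate 4. Its log2 change was -0.96 (edgeR, adjusted p = 0.20). Both genes overlapped between the diets.

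Most other short non-coding genes had negative log2 changes as well, 581 of 605. These non-coding genes of up to 200 nt outside the short rRNA genes had a median log2 change of -1.28, and 27 of them (4.46%) were called lower by edgeR. The median was -1.45 for 40 Snora genes (4 called), which guide pseudouridylation, -1.30 for 74 Snord genes (1 called), which guide ribose methylation, and -1.25 for 210 snRNA genes (14 called), a class that includes RNAs of the spliceosome. All listed genes of that kind together held 5.67% to 9.22% of counts under HFD and 14.5% to 22.7% under CF. Among the counts of all these short genes the 57 members held 33.2%, 31.4%, 31.2% and 32.0% under HFD and 33.1%, 31.3%, 33.4% and 33.3% under CF. That share overlapped between the diets.

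The size of the change and the calls depend on what libraries are scaled to. When libraries were scaled to the other non-coding genes of up to 200 nt, the median log2 change of the members was -0.18 while that of all genes was 1.44. Gm47301, inside n-R5s193, is among these genes, with 2.11% to 3.66% of all counts under HFD and 6.67% to 10.9% under CF. Scaling to their sum thus partly follows the locus of a member. Under this scaling edgeR called 0 members lower and 3 higher (n-R5s27, n-R5s127 and n-R5s161), and 0.0821% of all genes lower and 82% higher. Without mitochondrial tRNA and genes that overlap members in the scaling, a choice made after seeing the data, the medians were -0.36 and 1.26. Then 9 members were called lower and 1 higher, and 0.265% of all genes lower and 77.2% higher. The 9 were n-R5s71, n-R5s195, n-R5s204, n-R5s2, n-R5s33 and n-R5s106 with its 3 identical copies. Relative to the median of all genes, the members stood at -1.71 with TMM, -1.64 with library size alone and -1.61 with either scaling to short genes, a difference that scaling leaves nearly fixed because it shifts all genes nearly alike.

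**Figure D5:**
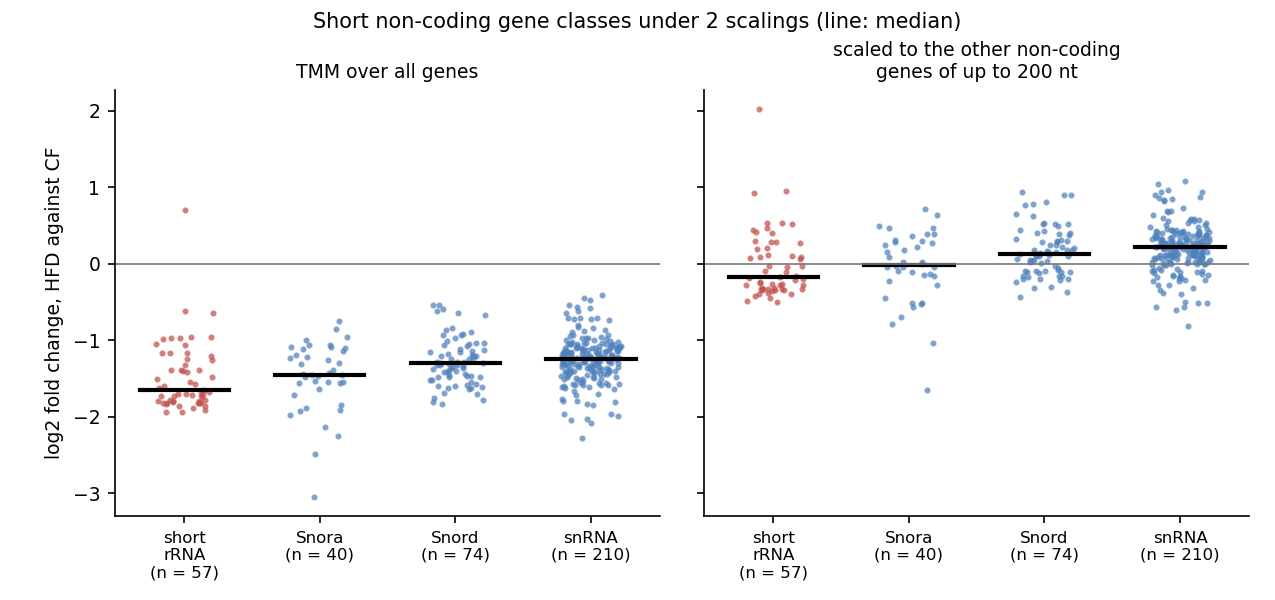
Fitted log2 change, HFD against CF, of every tested short rRNA, Snora, Snord and snRNA gene (points) with the median of each class (line), under TMM and scaled to the other non-coding genes of up to 200 nt. The medians run from -1.65 (short rRNA) to -1.25 (snRNA) under TMM and from -0.18 to 0.21 under the other scaling.

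The long rRNA gene had a larger share under HFD. CT010467.1 took 33.1% to 36.5% of all counts under HFD and 21.6% to 26.4% under CF, so that the short and the long rRNA shares went in opposite directions. In CPM it overlapped between the diets (295511 to 362480 in HFD, 182983 to 306454 in CF), with a log2 change of 0.27 (standard error 0.25, edgeR, adjusted p = 0.87). Of the counts outside CT010467.1, the short rRNA genes held 4.44% to 6.55% under HFD and 9.22% to 14.9% under CF.

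With TMM scaling, genes of the proteins that make, bind and remove 5S rRNA were not called. Of 42 symbols listed for them, 40 were in the table and tested. edgeR called 0 of the 40, and so did DESeq2 and limma voom, where edgeR called 0.423% of all genes, so that a count of 0 is near the background. At an unadjusted p below 0.05, 0 were lower and 1 was higher, and their median log2 change was 0.08. When libraries were scaled to the other non-coding genes of up to 200 nt, all 40 were called higher, as were 82% of all genes. In all 40 the diets overlapped in CPM, as they did in 14861 of all 15837 genes.

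By role, the genes of TFIIIA and TFIIIC had a median log2 change of -0.03 (7 genes), those of TFIIIB 0.03 (4 genes) and those of RNA polymerase III 0.08 (13 genes). Gtf3a, which encodes TFIIIA, had 10.4, 12.1, 16.9 and 15.3 CPM under HFD and 14.6, 16.8, 12.2 and 12.6 under CF. Its log2 change was -0.03 (standard error 0.18, edgeR, adjusted p = 0.98). Gtf3c3, a subunit of TFIIIC, had 13.6, 18.6, 18.9 and 18.8 CPM under HFD and 13.8 to 17.9 under CF, with 0.22 (standard error 0.15, edgeR, adjusted p = 0.80). Maf1, the repressor of RNA polymerase III, had 12.0 to 16.4 CPM under HFD and 11.4 to 15.4 under CF, with 0.06 (standard error 0.14, edgeR, adjusted p = 0.96).

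Neither were the partners of the finished RNA or the proteins that check its ends. Rpl5 had 174 to 238 CPM under HFD and 153 to 202 under CF, with a log2 change of 0.20 (standard error 0.14, edgeR, adjusted p = 0.80). Rpl11 had 50.2 to 83.3 and 50.6 to 62.5 CPM, with 0.22 (standard error 0.16, edgeR, adjusted p = 0.81). Ssb, the La protein that holds the ends of new RNA polymerase III transcripts, had 60.0 to 74.0 CPM under HFD and 56.6 to 61.9 under CF, with 0.13 (standard error 0.10, edgeR, adjusted p = 0.82). Rexo2, an oligoribonuclease, was the gene with an unadjusted p below 0.05 and had 24.8, 39.6, 28.1 and 44.0 CPM under HFD and 22.8, 28.1, 22.9 and 21.7 under CF, with 0.51 (standard error 0.19, edgeR, adjusted p = 0.44). Trove2, the Ro protein that binds misfolded 5S rRNA, had 3.93 to 6.55 CPM under HFD and 4.20 to 4.94 under CF, with 0.34 (standard error 0.19, edgeR, adjusted p = 0.73).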

How the data were processed

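The deposited table of raw counts per gene (8 libraries, 4 per diet) was used. According to the methods and the submitters' processing notes, the authors trimmed reads (cutadapt), aligned them to GRCm38 with HISAT2, kept uniquely mapped pairs and counted them with StringTie on GENCODE comprehensive genes. The annotation release and the strand setting are not given in the sources used here. Every listed gene had at least 29 counts in its highest library. By Ensembl identifier 16067 genes matched GENCODE vM21 and 52 did not. No 2 libraries of a diet agreed within sampling noise.

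Counts were compared in R 4.3.3 with edgeR 4.0.16 (filterByExpr, TMM, robust quasi-likelihood fit, diet as the only term). This left out 282 genes. P-values measure the spread between these libraries. Levels between genes were compared as CPM per kb. Identity to the consensus came from global alignment in Biopython 1.88. The consensus was planned as the most frequent listed sequence and is here the most frequent annotated one, and results with the other are among the alternatives. Alternatives were RLE factors, library size, scaling from protein-coding genes or from short non-coding genes, DESeq2 1.42.0, limma 3.58.1 (voom), a linear model on log2(CPM + 1), other filters, a replicate block, and each library left out. On data simulated at these depths (15766 genes, 200 changed), edgeR recovered 89.3% of 4-fold and 41.2% of 2-fold changes, with 7.69% of its calls false, and DESeq2 had 25.6% false. Genes were drawn independently there, without the spread that members share, so these rates may not hold for the members. Members and lists were chosen with earlier results of these data known. Members were named for level (8), lowest p (8, and 3 without an overlapping gene), largest and smallest fold change (4 each) and length, and partner genes by role or p. Members set beside these for a shared sequence were chosen after their values were seen. The sequences of these genes are not reported here.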

Additional observations from a re-analysis of the deposited data

Results flagged for a closer look

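In 60 groups of 4 libraries (the summed shares, the named members and the named partner genes in each diet), 1 value stood apart by the gap to its nearest neighbour. Gtf3c3 had 13.6 CPM in HFD replicate 1 and 18.6 to 18.9 in the other HFD libraries, a gap of 0.935 of the whole range, which is above Dixon's 95% limit for 4 values. About 1 in 20 groups passes this limit by chance. The short rRNA genes looked at were the 20 named ones, and none of their values did so.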

How the results depend on the processing

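edgeR called 67 genes, all lower in HFD, of which 27 were short rRNA genes. These 2 counts were 108 and 33 with library size alone, 567 and 52 with DESeq2, and 0 and 0 with the linear model on log2(CPM + 1). With each library left out they ranged from 0 to 200 and from 0 to 39. Without HFD replicate 4, 2 genes were called, 1 in each direction. For the members alone, the count was 3, all higher, when scaled to the other non-coding genes of up to 200 nt, 10 (9 lower and 1 higher) when that scaling left out both overlapping genes and mitochondrial tRNA, and 10 of 17 among members that overlap no gene. The median log2 fold change of the members was -0.18 and -0.36 under those scalings and -1.83 to -1.36 with each library left out. In all these settings the cause of the change was not tested. The summed share in HFD minus that in CF was -5.14 percentage points. It was -0.86 as a share of short non-coding genes, -0.31 for members that overlap no gene, -0.92 without n-R5s193, -10.6 with the 3 inner miRNA genes, and -5.65 to -4.31 with each library left out. Scaling to short genes aside, the 20 named members gave 356 values under other settings, of which 242 kept their side of the threshold, 104 lost it, 10 gained it and 0 changed sign. Under the scalings to short genes, which shift all genes up alike, 5 and 3 of the 20 changed sign.

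Replicate numbers did not pair the libraries, since deviations of same-numbered libraries correlated at -0.44, -0.08, -0.23 and -0.18. With the replicate number as a block, edgeR called 0 genes and 0 members, and 53 members had an unadjusted p below 0.05. Members with few counts, such as Gm26381 (11 to 28 under HFD) and n-R5s27 (8 to 18 under CF), are limited by depth.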
